A study of Mus musculus with 8 samples.

Results

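A divergent promoter is a stretch of DNA from which 2 neighbouring genes are transcribed away from each other. The merged H3K56ac peaks of mouse muscle stem cells that lie over such promoters are described here. Autosomal protein-coding genes of GENCODE vM21 were paired where one gene lay on the minus strand, its neighbour lay to its right on the plus strand, their annotated 5′ ends were at most 1000 bp apart and the genes did not overlap. Of 20807 autosomal protein-coding genes, 1448 (6.96%) fell into 734 such pairs, and 20 of these genes belonged to more than 1 pair. A peak was a member if it overlapped the interval between the 5′ ends, extended by 500 bp on either side, by at least 1 bp. That gave 755 of the 105600 merged peaks (0.715%), which together covered 3.09 Mb, and 23 of them lay at more than 1 pair. Positions decided membership, and no signal value entered the choice.

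H3K56ac, the acetylation of lysine 56 in the core of histone H3, was mapped by ChIP-seq, the sequencing of DNA bound by an antibody-precipitated protein, in mouse muscle stem cells (MuSCs), which rebuild skeletal muscle after injury. The 8 libraries formed 4 groups of 2 replicates, with H3K56ac and input (chromatin without immunoprecipitation) sequenced from Control and from Sirt6mKO mice. All mice were C57BL/6 and their age was not stated in the labels. Controls were labelled wild type, whereas Sirt6mKO mice carried floxed Sirt6 alleles with a constitutive Cre recombinase under the Pax7 promoter (Pax7-ICNCre), so that SIRT6, a deacetylase of histone H3, was lost throughout the Pax7 lineage and not in MuSCs alone. Cells were sorted from muscle without culture. The deposited list gives 1 merged set of intervals with no column for a genotype, a replicate or a signal, and its score column is 0 throughout. The values below are therefore presence, position and width of merged intervals, sequencing depth is not known from such intervals, and no comparison of Sirt6mKO with Control was possible. Of the 20 MuSC marker genes listed for the check of cell identity, all 20 had a peak within 500 bp of an annotated start. The same held for 3 of 5 endothelial, 0 of 5 immune, 4 of 5 fibro-adipogenic and 3 of 5 myofibre markers. Over all autosomal coding genes, 65.7% had a peak within 500 bp of any annotated start, which is the background for these counts. None of the MuSC markers belonged to a divergent pair.

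Divergent promoters are common in compact parts of mammalian genomes and are known for housekeeping genes, among them genes of DNA repair, mitochondria and translation. Most lie in CpG islands, lack a TATA box and load RNA polymerase in both directions from a shared nucleosome-poor centre. H3K56ac marks nucleosomes at active promoters and enhancers, so at such a promoter acetylated nucleosomes may flank the centre on both sides, each side being the beginning of a gene.

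The sequences between the starts show what kinds of promoter carried a peak. They come from the RefSeq copy of GRCm38, the same build as mm10, and are printed 5′ to 3′ on the plus strand, so the minus-strand gene begins near the left end and runs leftwards. Each runs from start to start with 20 bp on either side, or covers the 300 bp around the midpoint where that would be longer. Capitals mark matches on either strand to core motifs of promoter-binding factors, of which CCAAT is the box bound by NFY, GGGCGG the GC box bound by SP1 and CCGGAAG the site of ETS factors. The first set holds the 5 textbook divergent pairs that met the distance rule, each under a single peak over both starts.
Col4a4/Col4a3 (chr1:82586829-82586941): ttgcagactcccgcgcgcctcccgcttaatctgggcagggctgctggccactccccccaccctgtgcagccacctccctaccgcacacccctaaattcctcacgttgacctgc
Mcm4/Prkdc (chr16:15637484-15637783): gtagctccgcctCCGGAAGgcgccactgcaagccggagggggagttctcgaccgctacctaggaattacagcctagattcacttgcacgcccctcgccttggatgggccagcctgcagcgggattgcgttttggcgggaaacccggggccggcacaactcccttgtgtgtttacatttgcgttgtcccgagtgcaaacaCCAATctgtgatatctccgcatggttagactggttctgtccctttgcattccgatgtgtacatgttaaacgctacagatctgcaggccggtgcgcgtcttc
Atm/Npat (chr9:53536744-53537043): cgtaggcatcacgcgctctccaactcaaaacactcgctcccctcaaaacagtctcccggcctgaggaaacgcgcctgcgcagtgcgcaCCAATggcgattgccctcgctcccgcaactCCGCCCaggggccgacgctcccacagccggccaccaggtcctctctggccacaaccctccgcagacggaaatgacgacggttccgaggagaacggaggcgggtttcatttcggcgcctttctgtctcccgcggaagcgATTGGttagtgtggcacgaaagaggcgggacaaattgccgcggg
Mrps12/Sars2 (chr7:28741800-28742012): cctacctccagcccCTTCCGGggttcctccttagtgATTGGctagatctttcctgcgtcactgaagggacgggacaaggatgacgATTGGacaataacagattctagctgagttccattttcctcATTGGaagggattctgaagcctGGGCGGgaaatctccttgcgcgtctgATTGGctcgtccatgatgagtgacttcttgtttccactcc
Gart/Son (chr16:91647080-91647379): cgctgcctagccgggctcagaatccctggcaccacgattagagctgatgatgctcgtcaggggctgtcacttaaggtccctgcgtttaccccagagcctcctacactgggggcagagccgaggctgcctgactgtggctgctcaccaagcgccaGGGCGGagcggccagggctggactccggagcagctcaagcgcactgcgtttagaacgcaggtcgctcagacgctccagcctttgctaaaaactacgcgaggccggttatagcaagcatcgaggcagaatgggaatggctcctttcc

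The textbook pairs did not share a common layout of motifs. Mrps12/Sars2, a mitochondrial ribosomal protein beside mitochondrial seryl-tRNA synthetase, held 4 NFY boxes within a single short interval, whereas Col4a4/Col4a3, 2 chains of basement membrane collagen, held none of the 8 motifs shown in capitals.

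The second set shows intervals that are CpG-poor or CpG-rich over the 300 bp at the pair midpoint, and histone promoters. Nt5c3b/Klhl10 and Sirt6/Ankrd24 are pairs with a peak that are CpG-poor over that stretch. Hist1h2bl/Hist1h2ai is a histone pair with 3 peaks. Hist1h2bq/Hist1h2ao and Bend6/Dst are pairs without any peak that are CpG-rich at the midpoint. Hist1h2bl/Hist1h2ai was picked for printing after its peaks were seen.
Nt5c3b/Klhl10 (chr11:100441788-100441937): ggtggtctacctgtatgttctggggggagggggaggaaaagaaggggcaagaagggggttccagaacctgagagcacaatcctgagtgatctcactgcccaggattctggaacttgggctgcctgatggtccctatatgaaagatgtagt
Sirt6/Ankrd24 (chr10:81628019-81628318): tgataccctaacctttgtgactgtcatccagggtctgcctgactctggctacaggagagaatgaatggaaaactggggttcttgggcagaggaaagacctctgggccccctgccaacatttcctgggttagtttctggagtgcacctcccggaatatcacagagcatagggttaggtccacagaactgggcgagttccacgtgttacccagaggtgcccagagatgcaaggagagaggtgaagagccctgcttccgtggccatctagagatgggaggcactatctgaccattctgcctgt
Hist1h2bl/Hist1h2ai (chr13:21716133-21716432): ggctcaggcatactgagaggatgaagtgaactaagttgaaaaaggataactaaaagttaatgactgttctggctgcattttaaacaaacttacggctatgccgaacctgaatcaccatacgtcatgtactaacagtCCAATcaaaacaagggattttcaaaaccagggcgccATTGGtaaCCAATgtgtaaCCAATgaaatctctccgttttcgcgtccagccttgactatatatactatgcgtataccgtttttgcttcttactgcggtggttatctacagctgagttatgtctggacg
Hist1h2bq/Hist1h2ao (chr13:21810182-21810481): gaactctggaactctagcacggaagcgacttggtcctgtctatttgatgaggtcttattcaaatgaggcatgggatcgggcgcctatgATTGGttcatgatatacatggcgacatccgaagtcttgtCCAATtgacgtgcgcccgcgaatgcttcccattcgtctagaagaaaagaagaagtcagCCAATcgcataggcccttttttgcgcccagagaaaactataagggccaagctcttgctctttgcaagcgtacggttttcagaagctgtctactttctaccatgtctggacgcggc
Bend6/Dst (chr1:33907871-33908170): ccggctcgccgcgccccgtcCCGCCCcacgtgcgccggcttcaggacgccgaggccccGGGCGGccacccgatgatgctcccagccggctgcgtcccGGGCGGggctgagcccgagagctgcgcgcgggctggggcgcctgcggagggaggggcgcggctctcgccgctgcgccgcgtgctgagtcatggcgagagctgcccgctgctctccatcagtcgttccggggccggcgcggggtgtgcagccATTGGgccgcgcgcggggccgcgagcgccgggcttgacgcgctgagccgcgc

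Of the 734 divergent pairs, 707 held at least 1 peak (96.3%, 95% Wilson interval 94.7 to 97.5) and 27 held none. The intervals of shares and medians given here cover counting error only, since genes are not biological replicates, and no test between groups of genes was run. Counted per gene, 1395 of 1448 starts in a divergent pair had a peak within 500 bp (96.3%, 95.2 to 97.2). The background was 59.2% for the 19359 coding gene starts in no such pair and 61.8% for all 20807 autosomal coding gene starts. The start itself lay under a peak for 93.4% of paired and 55.6% of other genes.

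The genes in no pair were of several kinds. Among them, 873 starts had a coding start on the opposite strand within 1000 bp but formed no pair because the annotated 5′ ends overlapped, and 833 of these (95.4%, 93.8 to 96.6) had a peak within 500 bp. A further 855 starts had the start of a gene of another type, such as a long non-coding RNA, at most 1000 bp upstream on the opposite strand, and 698 of these (81.6%, 78.9 to 84.1) had one. Of the remaining 17631 starts, 9933 had a peak (56.3%, 55.6 to 57.1). The share thus fell from coding to non-coding divergent partners and fell further for starts with neither. This division was made after the first values were seen.

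CpG content differed between these kinds of start as well. The CpG observed/expected ratio, which is near 1 in CpG islands and far lower in most of the genome, was taken over the 300 bp upstream of each start. Its median was 0.831 (0.818 to 0.843) at starts in a divergent pair, 0.718 at the starts with an overlapping coding partner, 0.742 at those with a non-coding partner and 0.404 at those with neither. Among starts with a ratio of at least 0.75, a peak was present at 99.0% in divergent pairs (98.1 to 99.4), 97.2% with an overlapping partner (95.1 to 98.5), 95.9% with a non-coding partner (93.6 to 97.4) and 93.7% with neither (92.9 to 94.4). The gap between paired and other genes was thus smaller among CpG-rich starts. Where the starts of a pair are less than 300 bp apart, this stretch reaches into the partner gene.

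At CpG-poor starts the gap was wide. Below a ratio of 0.25, 22 of 43 paired starts (51.2%, 36.8 to 65.4) and 1136 of 6309 others (18%, 17.1 to 19) had a peak. Between 0.25 and 0.5 the counts were 65 of 79 (82.3%, 72.4 to 89.1) and 2391 of 4292 (55.7%). The intervals of paired and other starts did not overlap in either class, but those of paired starts are too narrow, since partners were counted separately. A window around a paired start can also reach a peak at its partner. In the lowest class the start itself lay under a peak for 14 of the 43 paired and 917 of the 6309 other starts. From 0.5 to 0.75 the shares were 97.8% and 87.0%, and from 0.75 to 1 they were 98.9% and 93.7%. At a ratio of 1 and over, 263 of 265 paired starts (99.2%, 97.3 to 99.8) and 812 of 840 others (96.7%, 95.2 to 97.7) had a peak, and here the intervals overlapped.

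**Figure D1:**
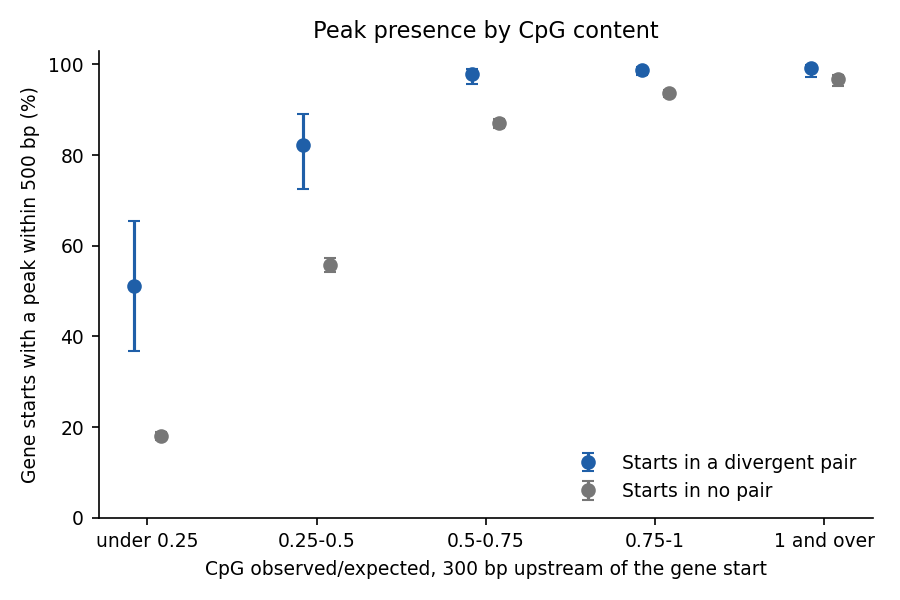
Share of coding gene starts with a merged H3K56ac peak within 500 bp (vertical axis, %), by CpG observed/expected ratio of the 300 bp upstream (horizontal axis), for starts in a divergent pair (blue) and in no pair (grey); bars are 95% Wilson intervals. Both rise with CpG content, from 51.2% and 18% in the lowest class to 99.2% and 96.7% in the highest.

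Within the pairs, presence of a peak went with CpG content at the midpoint in the same direction. Where the starts are more than 300 bp apart, the 300 bp measured end short of both starts. The upper quartile of the distance was 236 bp in pairs with a peak and 576.5 bp in pairs without. The median ratio over the 300 bp at the pair midpoint was 0.858 (0.841 to 0.88) in the 707 pairs with a peak and 0.238 (0.164 to 0.649) in the 27 without, and median GC content was 62.7% (62 to 63.7) against 52% (49 to 58.7). Of 64 pairs with a midpoint ratio under 0.5, 46 had a peak (71.9%, 59.9 to 81.4). The shares were 149 of 152 from 0.5 to 0.75 (98.0%) and 512 of 518 from 0.75 upwards (98.8%). The widest peak of a pair had a median of 3078.5 bp in the first class, 3617 bp in the second and 3991 bp in the last.

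The 5 pairs with a peak at the lowest CpG ratios differed in which gene the peak covered. Pinlyp/Xrcc1 (ratio 0.105), where Xrcc1 is a scaffold protein of single-strand break repair, lay under 1 peak of 4630 bp that covered both starts and ran 2195 and 2263 bp into the genes. At Nt5c3b/Klhl10 (0.091) the peak of 4100 bp ran 4014 bp into Nt5c3b, a nucleotidase gene, and ended 24 bp short of the start of Klhl10, a gene of spermatids. At Rnf151/Rps2 (0.146) the peak of 3018 bp began 21 bp to the right of the Rnf151 start, another gene of the male germ line, and ran 2985 bp into Rps2, a protein of the small ribosomal subunit. The peak of 1953 bp at 4930430F08Rik/1700017N19Rik (0.0878) covered neither start.

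Sirt6, the gene targeted in the study, was itself a member of a divergent pair. Its start lies 743 bp from that of Ankrd24, an ankyrin repeat gene, with a midpoint ratio of 0.184. A peak of 2624 bp covered both starts and reached 1392 bp into Sirt6 and 488 bp into Ankrd24. Sirt1, another deacetylase of the same family, was paired with the co-chaperone gene Dnajc12 at 739 bp, and its peak of 2158 bp reached 564 bp into Sirt1 and 854 bp into Dnajc12. Both pairs thus had wide intervals between the starts, low CpG ratios at the midpoint (0.336 for the Sirt1 pair) and peaks narrower than the median. At these distances the 300 bp at the midpoint hold neither start, so the ratios do not describe the sequence at the starts. The Sirt1 pair was chosen after its values were seen, and the Sirt6 interval cannot be assigned to Control or Sirt6mKO cells.

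Among the 707 pairs with a peak, 640 (90.5%, 88.1 to 92.5) had both starts under a single peak. In 31 pairs 2 different peaks covered 1 start each, in 11 only the minus-strand start was covered, in 18 only the plus-strand start and in 7 neither. The window from 500 bp before the one start to 500 bp past the other was covered in full in 603 pairs (85.3%). In the merged list, both starts of a pair thus most often lay under 1 interval. Peak width alone would give much of this, since the starts of these pairs were a median of 127 bp apart. For peaks over starts in no pair, percentile 6 of the upstream reach was 132 bp, so most of those peaks also ran that far. Peaks that were separate in single libraries may also appear as 1 interval after merging.

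The 755 members had a median width of 3695 bp (3597 to 3842) with quartiles of 2839.5 and 4910 bp, against a median of 981 bp for all 103492 autosomal peaks, promoter-distal ones included. For the 11614 peaks near gene starts in no pair the median was 3072.5 bp (3034 to 3122) with quartiles of 1883 and 4498 bp. Wide peaks overlap a window more often by construction, which raises the widths of members and of these promoter peaks. The window of a pair is also longer than that of a single start. Counted per gene start, the peak over a paired start had a median of 3874 bp (3774 to 3980). The peak over a start with an overlapping coding partner had a median of 4131 bp (3972 to 4290), with overlapping intervals. By CpG class from lowest to highest, paired starts had 2445.5, 3006.5, 3683, 3912 and 4041 bp and other starts 2835, 2931, 3300.5, 3752 and 4115 bp, so paired starts had the lower median in the first and last class and the intervals were apart in the middle class only. At least 5000 bp was reached by 178 members (23.6%, 20.7 to 26.7) and by 19.7% of those other promoter peaks. At least 10000 bp was reached by 16 members (2.12%, 1.31 to 3.42) and by 2.78% of the other promoter peaks (2.50 to 3.10), with overlapping intervals.

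Measured from each gene's start, the medians differed on the upstream side. A peak over a paired start ran a median of 1928 bp upstream (1867 to 1983), where the partner gene lies, and a peak over the start of a gene in no pair ran 1206 bp (1188 to 1228). Into the gene itself the medians were 1825 bp (1764 to 1876) and 1864 bp (1838 to 1896), with overlapping intervals, but the upper end was shorter at paired starts, where percentile 90 was 3755 bp against 4724 bp. Upstream reach was 1670 bp (1623 to 1754) at starts with an overlapping coding partner, 1447 bp (1356 to 1549) with a non-coding partner and 1153 bp (1132 to 1174) with neither, so the order followed that of peak presence. Downstream reach in these 3 kinds was 2040, 1919 and 1840 bp.

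**Figure D2:**
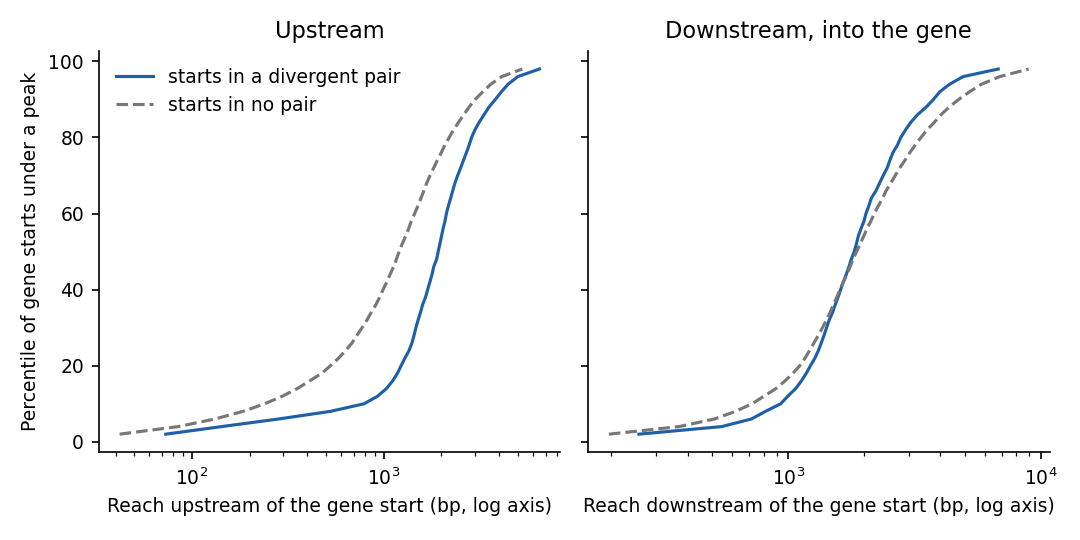
Distance to which the peak over a gene start extends upstream (left) and downstream into the gene (right), in bp on a log axis, against the percentile of gene starts under a peak, for starts in a divergent pair (blue) and in no pair (grey, dashed). The upstream curves are apart at the median, with 1928 and 1206 bp. Under a shared peak, the upstream reach of a paired start holds the downstream reach of its partner. The downstream curves meet there, with 1825 and 1864 bp, and part above it, with 3755 bp for paired and 4724 bp for other starts at percentile 90.

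Paired starts had the longer median upstream reach in each CpG class, with intervals apart in the upper 3 classes and overlapping in the lower 2. Here too, under a shared peak, this reach holds the distance between the starts and the partner's downstream reach. From the lowest to the highest CpG class the median upstream reach was 1202, 1496.5, 1800, 1958 and 2061 bp at paired starts and 719, 956, 1180, 1413 and 1639 bp at others. Downstream reach in the same classes was 1486, 1436, 1755, 1883 and 1813 bp at paired starts and 1696, 1681, 1790, 2029 and 2264 bp at others, so in each class the paired genes had the shorter median on that side. In the lowest class the upstream intervals were 469 to 2218 bp and 675 to 790 bp, and in the next 991 to 1963 bp and 915 to 1006 bp.

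Seen from the midpoint, coverage averaged over pairs was nearly symmetrical. Pairs were laid out by chromosome strand, with a gene on either side. This average therefore cannot show whether single peaks were symmetrical. In pairs with starts up to 200 bp apart, 97.6% of midpoints lay under a peak, as did 93.5% of positions 1000 bp to the left and 92.1% of positions 1000 bp to the right, and at 2000 bp the shares were 50.8% and 52.4%. Around starts of genes in no pair, 93.9% of starts were covered. So were 65.9% of positions 1000 bp upstream and 85.3% of positions 1000 bp downstream, so this profile leaned into the gene. These starts were laid out by gene direction, so their lean and the symmetry of pairs are not on the same footing.

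**Figure D3:**
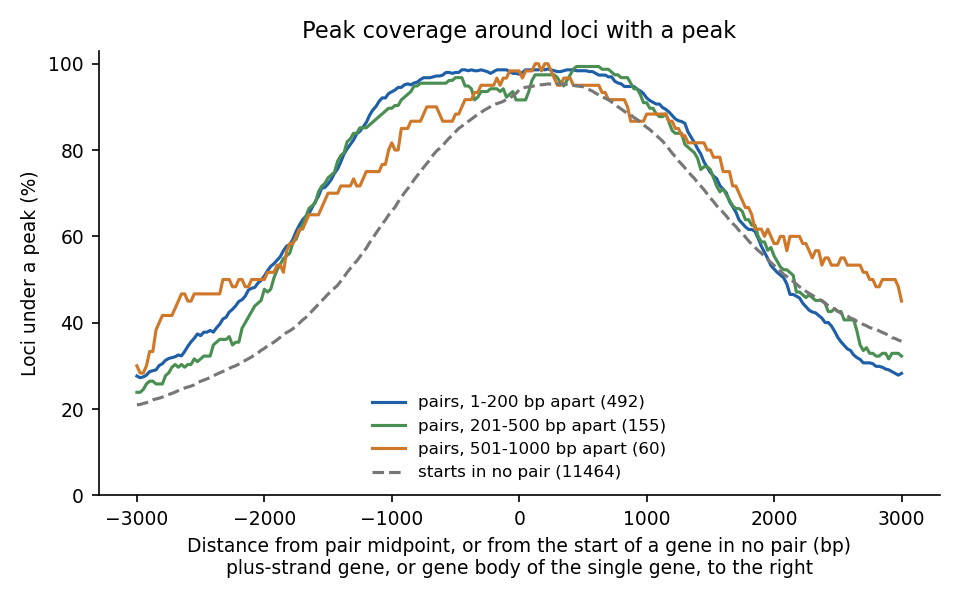
Share of loci under a merged peak (vertical axis, %) at each distance from the pair midpoint, or from the start of a gene in no pair (horizontal axis, bp; gene body to the right), among loci with a peak. Pairs are split by the distance between their starts (solid lines), and both of their sides lead into a gene. They stay high on both sides where starts in no pair (dashed) fall to 65.9% at 1000 bp upstream.

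Inside the 640 peaks that covered both starts, the reach beyond the minus-strand start had a median of 1789 bp (1716 to 1869) and that beyond the plus-strand start 1877.5 bp (1784 to 1939). The peak was longer on the plus-strand side in 335 of 640 pairs (52.3%, 48.5 to 56.2), so neither strand stood out. The longer side held a median of 61.1% of the reach outside the interval, and in 83 pairs (13%) it was at least 3 times the shorter. Across the 640 pairs the reach on either side was nearly unrelated, with a Spearman rho of 0.14 (n = 640 pairs, given as a description). The peak covered a median of 9.82% of the gene body, and 29 of 1280 gene bodies lay wholly under it.

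Most of the 5 widest members were lopsided. The peak of 18581 bp at Myl12b/Myom1 ran 15892 bp into Myl12b, a regulatory light chain of non-muscle myosin, and 2263 bp into Myom1, which encodes the M-band protein myomesin of the sarcomere. At Tmem135/Fzd4 the peak of 18001 bp ran 3102 bp into Tmem135 and 14765 bp into Fzd4, a receptor for Wnt and norrin. The peak of 16145 bp at Atp6v1a/Naa50 ran 11264 bp into Atp6v1a, a subunit of the vacuolar proton pump, and 4755 bp into the N-terminal acetyltransferase gene Naa50. Cep170/Sdccag8, both centrosomal genes, had 15159 bp with 8753 and 5812 bp, the most balanced of the 5. At Mrps18b/Ppp1r10 the peak of 12620 bp ran 2304 bp into the mitochondrial ribosomal gene and 10270 bp into Ppp1r10, a regulator of protein phosphatase 1.

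The 5 textbook pairs had peaks of 1983 to 7446 bp. Atm/Npat, the DNA damage kinase beside a coactivator of histone transcription, had the widest peak at 7446 bp, with 3216 bp into Atm and 3922 bp into Npat. The purine synthesis gene Gart and the splicing factor gene Son shared a peak of 6122 bp that leaned to Son, with 4166 against 1401 bp. At Mrps12/Sars2 the width was 3809 bp. Mcm4/Prkdc, which joins a replicative helicase subunit and the catalytic subunit of DNA-dependent protein kinase, had 3152 bp with 1392 and 1293 bp on either side. Col4a4/Col4a3 had the narrowest, 1983 bp. The other 8 of the 13 textbook pairs listed have overlapping 5′ gene ends in this annotation and are no members, and in all 8 a single peak covered both starts, among them Col4a1/Col4a2 with 17233 bp and Hspd1/Hspe1, the mitochondrial chaperonins, with 5876 bp.

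The distance between the starts went with how a promoter was divided into peaks. A peak was present in 299 of 306 pairs up to 100 bp apart (97.7%), in 193 of 200 farther apart and up to 200 bp (96.5%), in 93 of 96 up to 300 bp (96.9%), in 62 of 64 up to 500 bp (96.9%) and in 60 of 68 up to 1000 bp (88.2%, 78.5 to 93.9). In the same order, a single peak covered both starts in 97.3, 92.7, 78.5, 83.9 and 75% of pairs with a peak, and 2 or more peaks were present in 2.34, 9.33, 22.6, 16.1 and 16.7%. Widths did not follow distance, with medians of the widest peak of 3814, 4103, 3708, 4087.5 and 3678.5 bp and a Spearman rho of -0.021 between distance and width over 707 pairs.

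**Figure D4:**
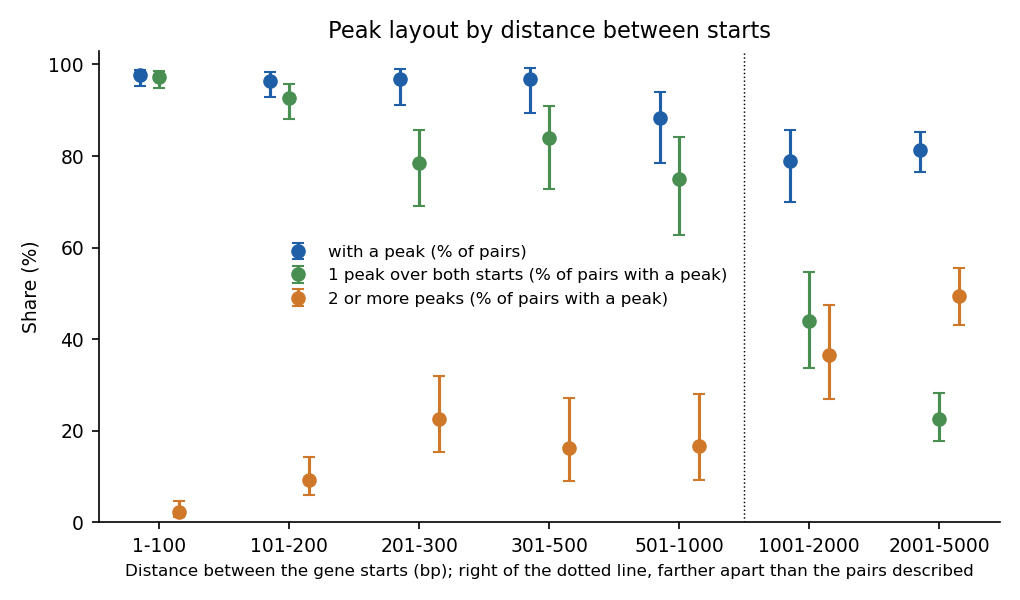
Share (vertical axis, %) of divergent pairs with a peak (blue), and among these of pairs with 1 peak over both starts (green) and with 2 or more peaks (orange), by distance between the starts in bp (horizontal axis); bars are 95% Wilson intervals. Single peaks over both starts fall from 97.3% up to 100 bp to 75% in the class up to 1000 bp, and to 22.6% in pairs over 2000 and up to 5000 bp apart, which lie outside the pairs described.

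Just outside the limit of 1000 bp the pattern changed further. Of 104 pairs over 1000 and up to 2000 bp apart, 82 had a peak (78.8%, 70.0 to 85.6), with a single peak over both starts in 43.9% of these and 2 or more peaks in 36.6%. From there to 5000 bp the values were 243 of 299 (81.3%), 22.6% and 49.4%. The extended window grows with distance, so wider pairs had more room to hold several peaks.

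In 66 pairs (9.34% of those with a peak, 7.41 to 11.7) the window held 2 or 3 peaks, separated by 71 gaps with a median width of 88 bp and quartiles of 36.5 and 177.5 bp. The widths of single gaps ran up to 872 bp, and at Plag1/Chchd7 a gap of 692 bp lay beside a peak of 530 bp. Of the 66 pairs, 10 joined 2 histone genes and are described apart. In the 56 other pairs, 31 of 56 gaps (55.4%, 42.4 to 67.6) lay wholly between the starts, 8 over the minus-strand start, 6 over the plus-strand start, 3 over both starts and 8 inside a gene, and the starts were a median of 237 bp apart (177 to 284) against 112 bp (104 to 127) in the 641 pairs with 1 peak.

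Brca1/Nbr1, the breast cancer gene of homologous recombination beside an autophagy receptor, was one of these. A peak of 1517 bp over the Brca1 start and a peak of 3941 bp over the Nbr1 start were parted by 55 bp within the 194 bp between the starts. At Sgce/Peg10, an imprinted pair, peaks of 1231 and 1618 bp were parted by 87 bp that held the Sgce start, so that only Peg10 had its start covered. At Klc3/Ckm the single peak of 1352 bp covered the start of Klc3, a kinesin light chain gene, and ended 11 bp short of the start of Ckm, the creatine kinase of mature muscle fibres. The choice of these 3 pairs was made with their values in view.

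The authors kept only reads with a single alignment, so each position was asked whether the 50-mer beginning there occurs more than once, on either strand, in the assembled chromosomes. The length of 50 bp was a choice made here. The paper lists longer reads, and a longer read can have a single alignment where a 50-mer is repeated. In the extended window the median share of such repeated 50-mers was 0% in pairs with a peak and 0% in pairs without (0 to 4.32), and 605 of the 707 pairs with a peak and 14 of the 27 without had none. Of 721 pairs other than pairs of histone genes, none exceeded 50% in its window, the highest being 49.4%. Among the 24 such pairs without a peak, 14 had none and the highest share was 41.5%. The part of repeated sequence in the absence of these peaks was not tested.

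The histone genes were the exception. Replication-dependent histone genes lie in clusters, often as divergent H2A and H2B pairs driven from a shared promoter, and their coding sequences are nearly identical between copies. Of 13 pairs of 2 histone genes, 10 had a peak (76.9%, 49.7 to 91.8), and all 10 had 2 or 3. The 5 pairs with 3 peaks were H2A and H2B pairs of the Hist1 cluster, with a small central peak of 534 bp at Hist1h2bl/Hist1h2ai, 384 bp at Hist1h2ah/Hist1h2bk, 517 bp at Hist1h2ae/Hist1h2bg, 484 bp at Hist1h2bf/Hist1h2ad and 660 bp at Hist1h2ac/Hist1h2bc. The central peak covered both starts in 4 of them and the Hist1h2bk start alone at Hist1h2ah/Hist1h2bk. The outer peaks were 979 to 8201 bp wide. The central peaks of 384 and 484 bp were among the 3 narrowest members of all.

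The gaps of the histone pairs coincided with repeated sequence. Of the 15 gaps, 12 lay inside a histone gene and 0 wholly between the starts, and a median of 97% of the 50-mers in a gap (60.3 to 100) occurred more than once, with a range of 45.7 to 100%. At the other pairs 53 of 56 gaps had 0% repeated 50-mers. The 3 exceptions were Zfp942/Zfp943, a pair of zinc finger genes, with 100%, Zfyve28/Cfap99 with 60.0% and Mfsd8/Abhd18 with 57.5%, the last of which held the remaining one of the 3 narrowest members, 432 bp wide. At the 5 histone pairs with 3 peaks the interval between the starts held 0% repeated 50-mers and the 10 gaps held 51.6 to 100%. The part of repeated sequence in these gaps was not tested.

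Both histone pairs without a peak and with a high CpG ratio, Hist1h2bq/Hist1h2ao (0.944) and Hist1h2ap/Hist1h2br (0.857), had 100% repeated 50-mers in their windows. Whether H3K56ac was present there cannot be told from a list made of reads with a single alignment. The third histone pair without a peak, Hist1h2ba/Hist1h2aa, which encodes testis variants, had only 10.6% repeated 50-mers and 0% between its starts. Hist2h2ac/Hist2h2be, in another histone cluster, had peaks reaching 7260 bp in width with a gap of 36 bp, and Hist1h2ac/Hist1h2bc held the widest histone peak, 8201 bp.

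**Figure D5:**
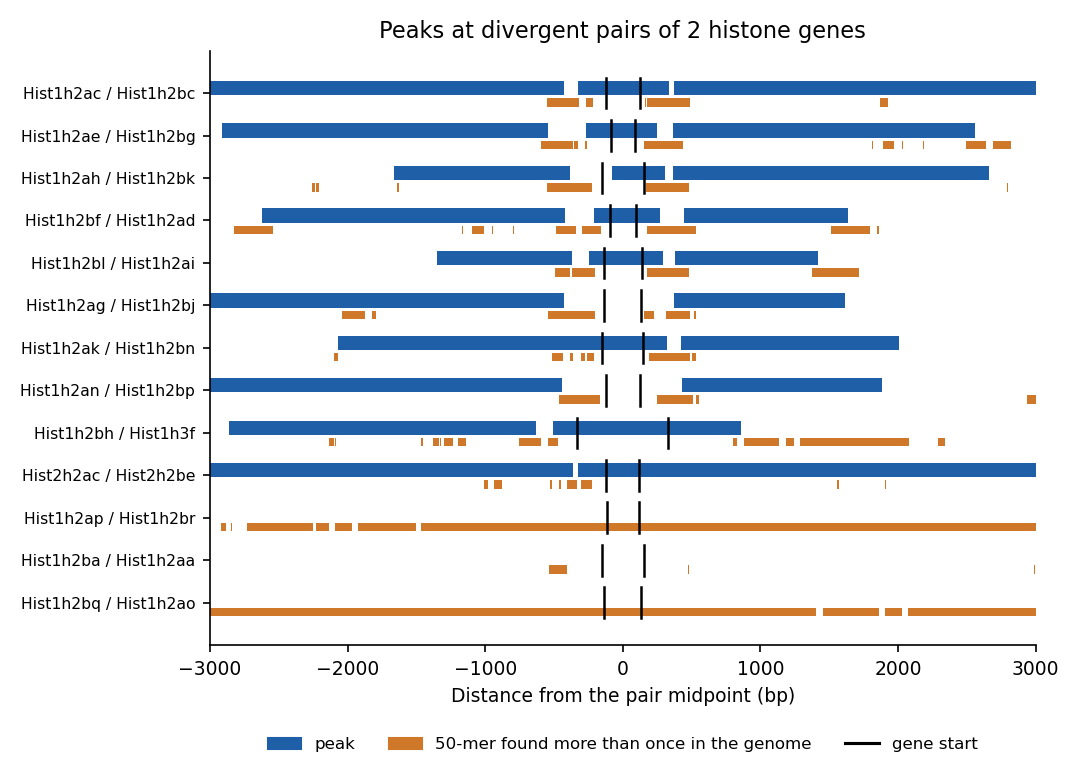
Merged H3K56ac peaks (blue) at the 13 divergent pairs of 2 histone genes, by distance from the pair midpoint in bp (horizontal axis, cropped at 3000 bp on either side), with the gene starts (black ticks) and the positions whose 50-mer occurs more than once in the genome (orange). The short gaps between peaks lie over orange stretches, and the windows of Hist1h2ap/Hist1h2br and Hist1h2bq/Hist1h2ao, which have no peak, are 100% orange within 500 bp of the starts.

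The histone promoters also differed in sequence from other divergent promoters. Over the 300 bp at the midpoint, all 13 held a CCAAT box (100%, 77.2 to 100) and 9 held TATAAA (69.2%, 42.4 to 87.3), against 43.3% and 3.30% of the 697 other pairs with a peak. GGGCGG was present in 2 of 13 and the ETS letters in 0 of 13, against 70.3% and 29.7%. The printed Hist1h2bl/Hist1h2ai sequence carries 4 CCAAT boxes between the starts and Hist1h2bq/Hist1h2ao 3.

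Motif content was counted over the same 300 bp in all pairs, on both strands, beside the share of all 20807 autosomal coding promoters, taken as the 300 bp upstream of the start. SP1 letters were present in 69.6% of pairs with a peak and in 41.0% of all promoters, ETS letters in 29.3% and 8.75%, YY1 letters (AAGATGGC) in 8.63% and 1.77%, NRF1 letters (GCGCATGCG) in 4.95% and 1.83%, CRE letters (TGACGTCA) in 4.67% and 2.00%, and ZBTB33 letters (TCTCGCGAG) in 3.11% and 0.702%. TATAAA went the other way with 4.38% and 13.8%, as did the E-box CANNTG with 58.1% and 70.5% and the AP-1 letters TGANTCA with 3.25% and 7.10%. The NFY box was at 44.1% and 39.4%. The 2 windows are unlike, since at close starts the midpoint window also holds sequence downstream of the starts and the promoter window does not. CpG content differed as well, with a median ratio of 0.858 in pairs with a peak and 0.442 at starts in no pair. The part of either in these differences was not tested. The motifs may overlap one another, and a match of letters says nothing on binding. Peak width did not separate the pairs by motif. The widest peak of a pair had a median of 3858 bp (3672 to 4145) with ETS letters and 3872 bp (3692 to 4042) without, and for each of the 10 motifs searched the intervals with and without it overlapped, the medians being farthest apart for ZBTB33, 4433.5 bp (3519 to 5734) against 3850 bp (3719 to 4002).

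The 27 pairs without a peak held SP1 and ETS letters less often than the pairs with a peak. SP1 letters were present in 6 of 27 (22.2%) and ETS letters in 1, while the E-box was in 22 (81.5%) and the CCAAT box in 15 (55.6%). NRF1, YY1 and CRE letters were in 0 of 27, for which the Wilson interval reaches 12.5%. That bound lies above their shares of 4.95, 8.63 and 4.67% in pairs with a peak. ZBTB33 letters went the other way, in 2 of 27 (7.41%) against 22 of 707 pairs with a peak (3.11%), with overlapping intervals. The printed Bend6/Dst interval, with 80.0% GC and 3 GC boxes, is 1 of the 6 with SP1 letters.

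The pairs without a peak named here were chosen with their values in view, and no list of tissue genes was counted over them. Smyd1/Cd8b1 joins a methyltransferase of differentiated muscle and the CD8 beta chain of T cells, and its nearest peak lay 15936 bp away. Pecam1/Milr1 joins the endothelial adhesion molecule CD31, against which the cells were sorted, and a mast cell receptor, and its nearest peak lay 11082 bp away, although Pecam1 had a peak at another annotated start. Kirrel2/Nphs1 are partners of the kidney slit diaphragm (11581 bp), and Bhmt2/Dmgdh are liver enzymes of methyl group metabolism (36244 bp).

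Absence at the annotated 5′ end did not always mean absence at the gene. In 12 of the 27 pairs (44.4%) at least 1 gene had a peak at another annotated start. Over all 20807 autosomal coding genes, 12859 had a peak within 500 bp of the 5′ end and 13678 within 500 bp of any annotated start. The count per pair takes 2 genes together, so it is not on the same footing as these counts per gene. Trim28, a widely expressed corepressor paired with the liver bile acid ligase Slc27a5 at 922 bp, was one, and Ccnt1, the cyclin of the elongation kinase P-TEFb, was another, with a peak of 6145 bp only 613 bp from the window. Pecam1, Dst, which encodes the cytolinker dystonin, Nisch, Dgcr2 and both Pcdh12 and Rnf14 were others. The nearest peak was a median of 6754 bp from the window, and the farthest, for the predicted genes Gm20075/Gm17190, was 118144 bp away. Of the 6 pairs without a peak at a midpoint ratio of 0.75 or more, 2 were the repeated histone pairs, 2 shared the gene Aspa, and the others were Bend6/Dst (1.04) and Lypd4/Dmrtc2 (0.931). Repeated 50-mers made up 0% of the window in these last 4.

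In 7 pairs a peak lay in the window but over neither start. Histone pairs made up 2 of these, Hist1h2an/Hist1h2bp and Hist1h2ag/Hist1h2bj, with gaps of 872 and 803 bp over both starts. At Mfsd8/Abhd18, a lysosomal transporter and a hydrolase gene, 92.9% of the 50-mers between the starts were repeated. Nr2e1/Ostm1, where Nr2e1 encodes a nuclear receptor of neural stem cells, had 1 peak of 687 bp inside Ostm1, 210 bp beyond its start. The others were Lrrc42/Hspb11, Cdca2/Kctd9 and 4930430F08Rik/1700017N19Rik. Hspa1a/Hspa1l, inducible and testis heat shock proteins with near-identical copies nearby, had a peak of 2205 bp that began 87 bp to the right of the Hspa1a start, and 30.8% of its window was repeated. The choice of these pairs, too, was made with their values in view.

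By function, the listed housekeeping groups had a peak at each of their divergent promoters. All 40 pairs with a DNA replication or repair gene had one, with a single peak over both starts in 39 and a median widest peak of 3524.5 bp. Wrn/Purg, with the helicase of Werner syndrome, had a peak of 8207 bp. Brca1/Nbr1 was the 1 pair without a shared peak. Since 96.3% of all pairs had a peak, and 90.5% of pairs with a peak had 1 over both starts, these counts do not set this group or those below apart.

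All 24 pairs with an oxidative phosphorylation gene and all 18 with a mitochondrial ribosomal protein had 1 peak over both starts, against 90.5% of all pairs with a peak. Median widest peaks were 3612.5 and 3565.5 bp. Tatdn1/Ndufb9, where Ndufb9 encodes a complex I subunit, had 8860 bp, and Uqcrh/Lrrc41, with a hinge protein of complex III, had 8259 bp. Mrpl40/Hira, which pairs a mitochondrial ribosomal protein with a chaperone of histone H3.3, had 6396 bp. Among 8 pairs with a cytosolic ribosomal protein the median was 3743 bp, and Med22/Rpl7a had 11078 bp, of which 8859 bp ran to the Med22 side, and Rps27/Rab13 had 4877 bp.

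Other groups of the gene expression machinery were alike. All 19 pairs with an RNA polymerase subunit or general transcription factor had 1 peak over both starts, with a median of 3958 bp, 7273 bp at Lnx2/Polr1d and 5609 bp at Polr3c/Rnf115. All 5 with an aminoacyl-tRNA synthetase did too (median 4185 bp), the widest being Kars/Terf2ip with 4513 bp and S100pbp/Yars with 4435 bp. The 7 pairs with a proteasome gene had the highest median of the groups with at least 5 pairs, 4780 bp, and Psmb1/Tbp, a core subunit beside the TATA-binding protein, had 6237 bp and Cep76/Psmg2 5123 bp. With 7 pairs that order is loosely held.

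Chaperone and zinc finger pairs included some without a shared peak. Of 18 chaperone pairs all had a peak, 15 with 1 over both starts, and the widest were Dnajb4/Fubp1 with 9501 bp and Hsp90b1/Ttc41 with 6824 bp. Genes entered this list by symbol alone, among them Hspb11 of Lrrc42/Hspb11, a pair without a shared peak, so the count does not rest on known chaperone function. Of 23 zinc finger pairs 22 had a peak, with a median of 4608 bp, 9942 bp at Zfp91/Lpxn and 8347 bp at Zbtb25/Zbtb1, and Zfp558/Mbd3l1 was the 1 without. The collagen list matched Col4a4/Col4a3 and Polk/Col4a3bp (3884 bp), the latter by its symbol only, since Col4a3bp encodes a ceramide transporter. The 1 pair with a vomeronasal receptor, Nt5c3/Vmn1r4, had a peak of 5927 bp, although 6 of 1457 olfactory and vomeronasal receptor genes (0.412%) had a peak near their start.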

How the data were processed

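The authors trimmed reads with Trim Galore, aligned them to mm10 with bowtie keeping single alignments, removed duplicates with Picard, called peaks with MACS2, removed blacklisted regions and merged overlapping peaks with GenomicRanges. The submitters' processing notes also name FastQC, SAMtools and deepTools. The deposited list holds positions, and its deposited score column is 0 in every row. It does not state which libraries entered, so widths describe a union. There were 0 unused columns of other samples.

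Genes came from GENCODE vM21 and sequence from RefSeq GRCm38.p6. Positions count from 1. Shares have 95% Wilson intervals and medians have binomial order-statistic intervals. Repeated 50-mers were counted over 21 chromosomes. Python 3.11.15, numpy 2.4.6, scipy 1.17.1, pyfaidx 0.9.0.4 and matplotlib 3.10.9 were used, and the pairing, median-interval and 50-mer code was tested on simulated data. Named pairs were the 5 widest and 3 narrowest peaks, those with most peaks, 13 textbook pairs, 2 per gene list with the widest peaks and up to 2 without, and the 5 with extreme CpG ratios on either side; exceptions are stated, and 1 pair is not reported here. Members and lists were chosen with earlier results of these data known. Alternatives changed distance, extension, overlap, peak list, gene starts and pairs used.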

Additional observations from a re-analysis of the deposited data

How the results depend on the processing

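Of 67 alternative values for 7 results, 57 stayed within the counting interval of the reported value (or within 1.5 times it for the number of peaks) and 0 reversed. With starts up to 2000 bp apart, the share of pairs with a peak was 94.2%, that of pairs with 1 peak over both starts 85.7% and that with 2 or more peaks 12.2%. Without the extension, 4.43% of pairs held 2 or more peaks. With peaks less than 1 kb apart joined, 0% did, since the widest gap between peaks of a pair was 872 bp. In that setting 97.7% had 1 peak over both starts and the median width was 4600 bp. The difference in median CpG ratio between pairs with and without a peak, 0.62 as reported, was 0.479 with starts up to 500 bp apart and 0.480 over the whole extended interval. The GC difference of 10.7 percentage points was 5.90 over that interval; the cause was not tested. Leaving out the pairs of 2 histone genes, an alternative chosen after seeing the data, gave 96.7% of pairs with a peak, 90.8% with 1 peak over both starts and 8.03% with 2 or more.

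No paired analysis was possible because the peak list holds no measurement of any single library. The list cannot separate Sirt6mKO from Control, ranks no peak by strength, and does not give depth, so an absent peak sets no bound on acetylation. Whether the annotated 5′ ends are the starts used in MuSCs was not tested.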
